A study of Mus musculus with 12 samples.

Results

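Olfr653, Olfr65, Olfr594 and Olfr667 are class I odorant receptor genes of the mouse that had more RNA in olfactory mucosa lacking the enhancer eA than in wildtype mucosa, whereas most of their class had less. They were chosen by name for that difference, so their levels in the 2 genotypes are given as a description and carry no test. The 4 genes are among 155 class I genes, 1392 odorant receptor genes and 46297 genes in the deposited table. All 4 passed the filter on low values (a mean of at least 10 normalized counts over all libraries), as did 116 class I genes in total.

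The libraries come from 6 mice with the eA deletion and 6 wildtype mice, all males of postnatal day 30 with the strain label 129S6;C57BL/6J. The deletion removes 912 bp of chromosome 7 (102509701 to 102510612), and the tissue is the whole olfactory mucosa, the lining of the nose that holds the sensory neurons. The labels do not say whether the deletion is on 1 or both copies of chromosome 7, nor which strain each animal's class I genes come from. Libraries were ribodepleted and stranded, and 13011763 to 23039733 reads per library were recovered from the table.

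Odorant receptors are G protein-coupled receptors, and a mature olfactory sensory neuron typically expresses just one allele of a single receptor gene. Class I receptors are the group that mammals share with fish, they are used mostly by neurons of the dorsal mucosa, and several respond to carboxylic acids. In the mouse nearly all of them lie in a single cluster on chromosome 7, and enhancers there act on receptor genes of the same chromosome. Ligands of the 4 receptors are not described here.

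All 4 genes lie on chromosome 7 (GRCm38) at higher coordinates than the deleted element. Olfr594 (ENSMUSG00000073954.5) is the nearest, at 103216996 to 103222313 on the plus strand, 706 kb away. Olfr65 (ENSMUSG00000110259.2) follows at 103903487 to 103908650 on the plus strand, 1393 kb away. Olfr653 (ENSMUSG00000073926.4) lies at 104577314 to 104584117 on the plus strand, 2067 kb away. Olfr667 (ENSMUSG00000056782.5) is the most distant, at 104914742 to 104921482 on the minus strand, 2404 kb away. The 4 genes are therefore spread through the cluster with other receptor genes between them. No other annotated gene overlaps any of them.

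The coding sequences show how far reads of each gene can be told from those of its relatives. Each gene is set beside the class I receptor with the most identical coding sequence, in the 80-base coding stretch where the pair differs least. Sequences are from GENCODE M21 transcripts (GRCm38), written 5′ to 3′ in the sense of the gene, and capitals mark the bases at which the pair differs. Olfr65 and Olfr623 are shown from base 33 to base 112 of the coding sequence, counted from the start codon.

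Olfr65: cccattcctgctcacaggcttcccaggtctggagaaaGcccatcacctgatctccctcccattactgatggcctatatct
Olfr623: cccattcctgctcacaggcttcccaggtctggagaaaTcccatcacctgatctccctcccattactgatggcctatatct

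Only 1 base differs in this stretch, and the whole coding sequences are 92.3% identical. Olfr594 and Olfr589 are 83.5% identical over the coding sequence and differ at 2 bases between coding bases 707 and 786.

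Olfr594: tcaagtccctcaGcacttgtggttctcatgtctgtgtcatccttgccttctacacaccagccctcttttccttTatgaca
Olfr589: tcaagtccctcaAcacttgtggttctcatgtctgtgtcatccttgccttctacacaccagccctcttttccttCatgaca

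Olfr667 and its immediate neighbour Olfr668 are 84.9% identical (Olfr666, next in order, is 84.8% identical), and from coding base 103 to 182 they are the same, so 1 line stands for both and holds no capitals.

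Olfr667: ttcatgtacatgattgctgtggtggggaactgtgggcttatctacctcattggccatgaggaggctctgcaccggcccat

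Olfr653 has no such close relative. Its nearest, Olfr646, is 64.9% identical and differs at 14 bases even in the closest stretch, coding bases 349 to 428 of Olfr653 and 322 to 401 of Olfr646.

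Olfr653: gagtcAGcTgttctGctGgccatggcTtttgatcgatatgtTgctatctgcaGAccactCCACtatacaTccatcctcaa
Olfr646: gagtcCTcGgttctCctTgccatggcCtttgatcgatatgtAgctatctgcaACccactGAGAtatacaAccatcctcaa

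The 4 genes are no closer to each other than this, with pairwise coding identities between 55.3% (Olfr65 and Olfr667) and 63.5% (Olfr653 and Olfr594). Over the full annotated transcripts, 23 of 4783 windows of 50 bases in Olfr653 were also found in another gene (0.481%). The same was true of 77 of 2885 windows in Olfr65 (2.67%, all shared with Olfr623), 12 of 2761 in Olfr594 (0.435%) and 50 of 2646 in Olfr667 (1.89%). No source used here says how the authors' counting treated reads from shared stretches, so values of Olfr65 and Olfr667 carry that uncertainty.

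Levels are given as normalized counts, the authors' read counts divided by a size factor for each library. Olfr653 ranged between 868 and 1469 normalized counts in the 6 eA deletion libraries, with a median of 1077, against 477 to 565 with a median of 533 in the 6 wildtype libraries. Every deletion library was above every wildtype library. The means were 1101 ± 213 in deletion and 532 ± 32.2 in wildtype mucosa (SD, n = 6 each), a ratio of 2.07. Behind these values stand 391 to 1671 reads per library.

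Olfr65 ranged between 299 and 499 normalized counts in deletion libraries, with a median of 389, against 183 to 241 with a median of 209 in wildtype libraries. Again the groups did not overlap. Its means were 393 ± 67.3 in deletion and 211 ± 23.5 in wildtype mucosa (SD, n = 6 each), a ratio of 1.86 from 154 to 568 reads per library. Olfr653 and Olfr65 are thus 2 of the 4 genes without overlap. Among all 19373 genes that passed the filter, 0.145% were higher in every deletion library than in any wildtype library, and among class I genes 1.72% were. Since the genes were chosen on this difference, nothing is read from those shares.

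Olfr594 ranged between 84.5 and 157 normalized counts in deletion libraries, with a median of 136, against 75.4 to 96.8 with a median of 84.8 in wildtype libraries. The third deletion library lay inside the wildtype range and the other 5 lay above it. The means were 132 ± 24.8 in deletion and 85.9 ± 8.11 in wildtype mucosa (SD, n = 6 each), a ratio of 1.54, from 56 to 161 reads per library.

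Olfr667 ranged between 77.9 and 119.5 normalized counts in deletion libraries, with a median of 100.1, against 63.3 to 81.8 with a median of 70.6 in wildtype libraries. Here the sixth deletion library lay inside the wildtype range and the other 5 above it. The means were 100.2 ± 14.6 in deletion and 71.2 ± 8.0 in wildtype mucosa (SD, n = 6 each), a ratio of 1.41. Olfr667 rests on the fewest reads of the 4, 47 to 136 per library.

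**Figure D1:**
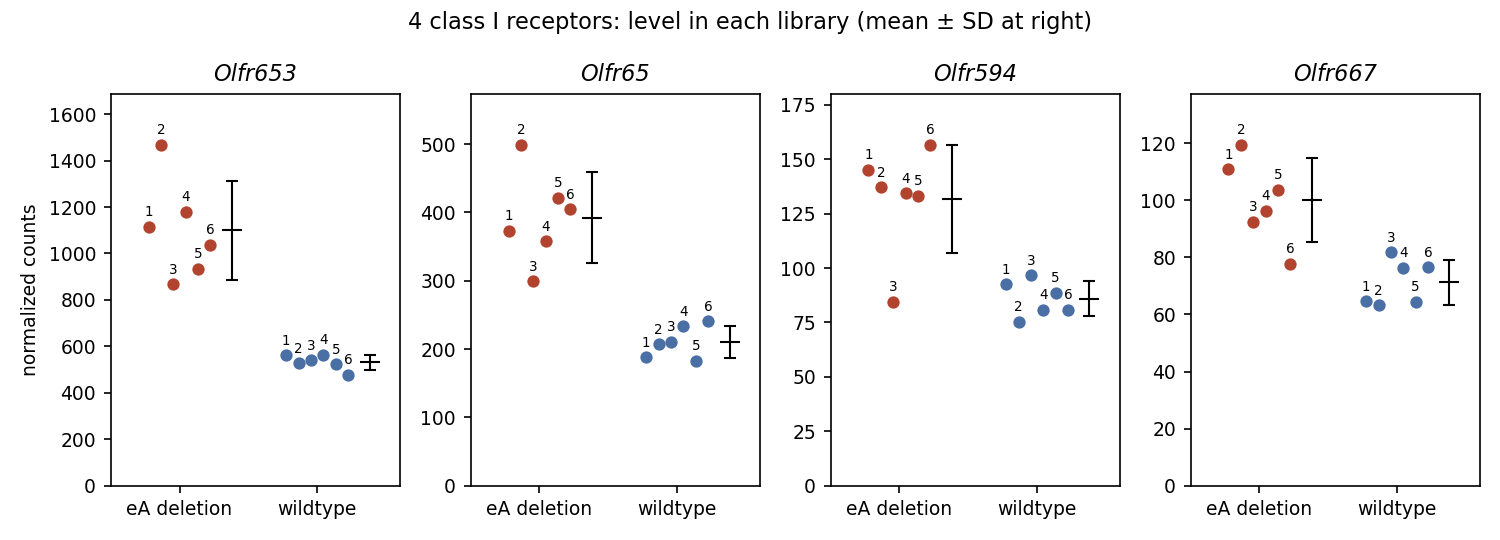
Normalized counts (vertical axis, each panel from 0) of the 4 receptor genes in every library, with eA deletion left of wildtype; numbered points are animals and the bars are the mean with its SD (n = 6 each). Olfr653 and Olfr65 separate completely, while 1 deletion library of Olfr594 (84.5) and 1 of Olfr667 (77.9) lie inside the wildtype range.

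On the log2(value + 1) scale, the differences of deletion minus wildtype were 1.03 ± 0.10 for Olfr653, 0.89 ± 0.11 for Olfr65, 0.59 ± 0.14 for Olfr594 and 0.48 ± 0.12 for Olfr667 (limma estimate ± SE). The authors' deposited table gives its own values, with the opposite sign because it sets wildtype over deletion. They are -0.75 for Olfr653, -0.60 for Olfr65, -0.36 for Olfr594 and -0.29 for Olfr667 on the log2 scale. Their order of size is the same, but each is smaller in size than the limma estimate. DESeq2 on the recovered reads gave 1.05, 0.90, 0.62 and 0.49 in that order, deletion over wildtype. The cause of the smaller deposited values was not tested. The class I genes with the next largest positive estimates were the pseudogene Olfr587-ps1, Olfr609 and Olfr693. Olfr587-ps1 averaged 72.1 ± 17.7 normalized counts in deletion and 53.6 ± 7.30 in wildtype mucosa (SD, n = 6 each), a log2 difference of 0.40, just under that of Olfr667. Olfr609 differed by 0.26 and Olfr693 by 0.25 on the same scale, and all 3 overlapped between the groups. For Olfr693, 5 deletion libraries lay above the wildtype range, as many as for Olfr594 and Olfr667. For Olfr609 it was 4 and for Olfr587-ps1 3.

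The deletion libraries were not uniform. The third deletion library was the lowest for Olfr653, Olfr65 and Olfr594 and the second lowest for Olfr667. The second deletion library was the highest for Olfr653, Olfr65 and Olfr667. Without the 4 genes, the class I signal of the deletion group was highest in the second library (9132 normalized counts) and lowest in the sixth (6610), with 6899 in the third. The third had the lowest Omp of the deletion group, a marker of mature sensory neurons (56756 normalized counts, against 66084 in the second). Omp was highest in the first (72296), which had 1115 normalized counts of Olfr653 and 373 of Olfr65. The part of Omp and of the class I signal in the receptor values was not tested. For Olfr653 the coefficient of variation was 19.4% in deletion and 6.04% in wildtype libraries, where counting error alone would give 3.06% and 4.37% of the mean. On the log2 scale the SD of Olfr653 in deletion libraries was 3.02 times that in wildtype libraries, and the ratio was 2.31 for Olfr594, 1.54 for Olfr65 and 1.35 for Olfr667. The median of this ratio was 1.49 over the tested class I genes and 0.94 over all tested genes.

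Libraries also differed in Gm10800, a predicted gene that took over 1% of reads in 2 deletion libraries (the third and the sixth, 4.50% and 2.78%) and in 2 wildtype libraries (the second and the third, 7.80% and 7.01%). Among libraries at or under 1%, 4 per group, the ratios of deletion to wildtype means were 2.21 for Olfr653, 1.95 for Olfr65, 1.6 for Olfr594 and 1.53 for Olfr667. Among libraries above 1%, 2 per group, they were 1.79, 1.68, 1.40 and 1.17 in the same order. The set at or under 1% was not matched, with 0.00133% to 0.0103% Gm10800 in deletion and 0.0790% to 0.885% in wildtype libraries. The libraries above 1% also had more genes detected, 36565 to 42218 against 28832 to 33895. In the set above 1%, Olfr594 ranged between 84.5 and 157 normalized counts in deletion and between 75.4 and 96.8 in wildtype libraries, and Olfr667 between 77.9 and 92.5 in deletion and between 63.3 and 81.8 in wildtype libraries, so both overlapped. These ratios describe the same values on which the genes were chosen, and the difference between the sets was not tested.

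To compare levels between genes, normalized counts were divided by the annotated exon length. Olfr653 had 230 ± 44.6 normalized counts per kb in deletion and 111 ± 6.72 in wildtype mucosa (SD, n = 6 each). That placed it at number 1 of the 116 tested class I genes in deletion mucosa and number 5 in wildtype mucosa. In deletion mucosa it was followed by Olfr672, with 168 ± 35.4 normalized counts per kb, and the spreads of this pair overlap. In wildtype mucosa Olfr672 was first, with 219 ± 22.6 per kb. Without the division by exon length, Olfr653 was number 1 in both genotypes.

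Olfr65 had 134 ± 22.9 normalized counts per kb in deletion and 71.7 ± 7.99 in wildtype mucosa, which made it number 3 and number 12 of the class. Olfr594 had 46.9 ± 8.81 per kb in deletion and 30.5 ± 2.89 in wildtype mucosa, number 19 and number 64. Olfr667 had 37.2 ± 5.43 per kb in deletion and 26.4 ± 2.97 in wildtype mucosa, number 23 and number 75. The order Olfr653, Olfr65, Olfr594, Olfr667 held in both genotypes, but Olfr594 and Olfr667 did not differ beyond their SDs in either.

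The 4 genes made up a larger part of the class I signal in deletion mucosa, a share in which both their own higher level and the lower level of most of the class enter. Olfr653 alone made up 11.7% ± 1.51 of class I normalized counts in deletion mucosa and 3.81% ± 0.30 in wildtype mucosa (SD, n = 6 each). Olfr65 made up 4.16% ± 0.45 in deletion and 1.5% ± 0.15 in wildtype mucosa, Olfr594 1.41% ± 0.31 and 0.617% ± 0.085, and Olfr667 1.06% ± 0.10 and 0.510% ± 0.061. Together they were 18.3% ± 1.92 in deletion mucosa, against 6.44% ± 0.38 in wildtype mucosa. Of the signal of all odorant receptors they were 1.25% ± 0.16 in deletion and 0.673% ± 0.050 in wildtype mucosa.

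**Figure D2:**
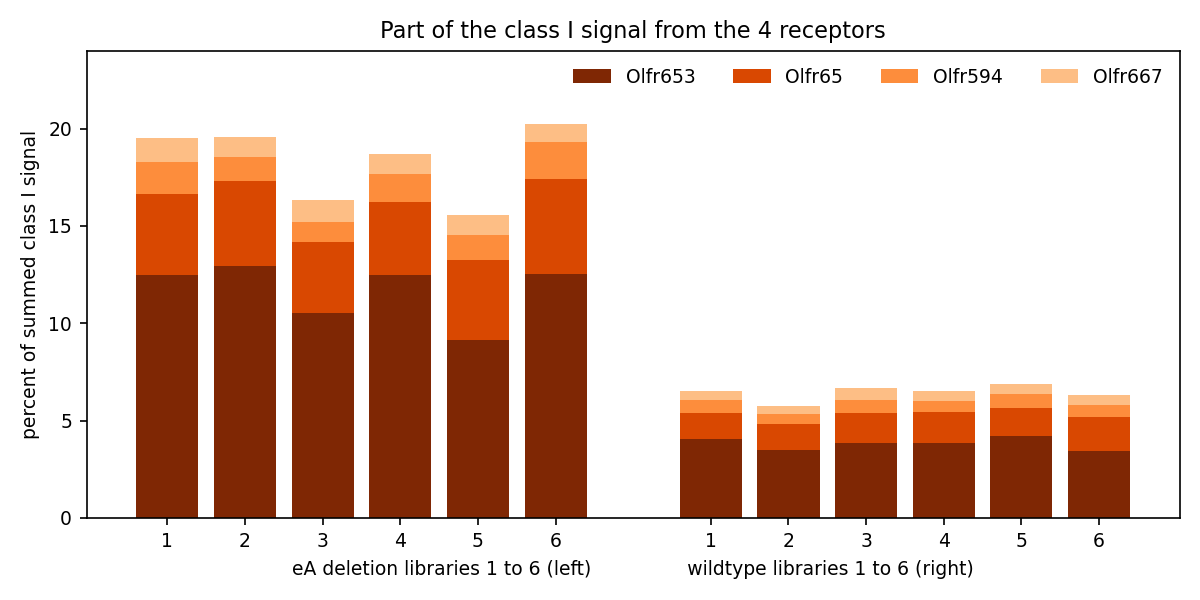
Share of summed class I normalized counts (vertical axis, percent, from 0) that came from each of the 4 genes in every library, eA deletion libraries left of wildtype libraries. The 4 genes sum to 18.3% ± 1.92 in deletion and 6.44% ± 0.38 in wildtype libraries (mean ± SD, n = 6 each).

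The higher level of the 4 genes did not make up for the lower level of the rest of the class. Their summed level was 1725 ± 289 normalized counts in deletion and 899.9 ± 37.5 in wildtype mucosa (SD, n = 6 each). The class I genes other than the 4 summed to 7694 ± 1001 in deletion and 13106 ± 891 in wildtype mucosa. Their sum differed by -5412 normalized counts or -41.3%. As a share of all receptor signal they were 5.64% ± 0.65 in deletion and 9.87% ± 0.94 in wildtype mucosa. Both measures were lower in 6 of 6 deletion libraries than in any wildtype library, with p = 0.002165 each in a two-sided exact permutation test, also after Benjamini-Hochberg adjustment over both, which is the smallest p that 924 splits can give. These measures leave out genes that were chosen for being higher, which enlarges the difference. With the 4 genes included, the class summed to 8244 to 11357 normalized counts in deletion libraries and 12515 to 15176 in wildtype libraries. In whole mucosa, fewer neurons that express a receptor and less of its RNA per neuron cannot be told apart. The same holds for more.

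Across the class, limma with Benjamini-Hochberg adjustment over all tested genes at 5% called 63 class I genes lower in deletion mucosa (54.3%) and 2 higher (1.72%), against 0.341% lower and 0.031% higher (0.372% in either direction) over all 19373 genes. The 2 higher calls are Olfr653 and Olfr65, which were chosen on this contrast, so nothing is read from them. The other 112 tested class I genes had a median log2 difference of -0.99, with 10 positive estimates, while the median over all tested genes was 0.0087. Thus 63 of those 112 genes were lower (56.2%). Olfr653, Olfr65, Olfr594 and Olfr667 are separated from each other by stretches in which lower genes occur, as the plot against distance shows.

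**Figure D3:**
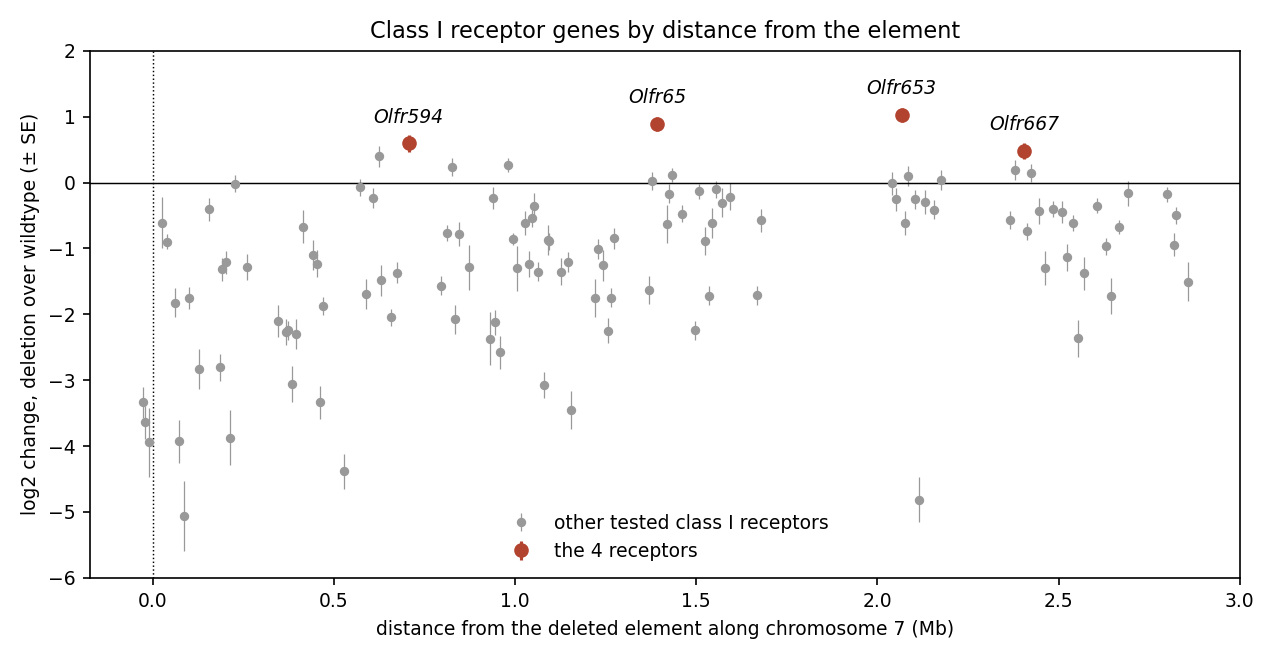
Log2 difference of deletion minus wildtype (vertical axis) for the tested class I genes with its SE against their distance from the deleted element (horizontal axis, Mb, negative at lower coordinates); the 4 receptor genes are named, and Olfr693 at 4164 kb lies beyond the axis. Olfr653 (1.03), Olfr65 (0.89), Olfr594 (0.59) and Olfr667 (0.48) lie at 706 to 2404 kb, above a class whose other genes have a median of -0.99.

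The immediate neighbours of the 4 genes, the closest pair of tested class I genes on each side, gave 16 genes that had no part in the choice. Of these, 6 were lower in deletion mucosa (37.5%, beside 56.2% of the 112 class I genes without the 4) and 10 did not pass the test. Their median log2 difference was -0.59. The 4 genes thus have neighbours of both kinds.

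Around Olfr594, all 4 neighbours were lower in deletion mucosa. Olfr591 averaged 64.2 ± 11.3 normalized counts in deletion and 266 ± 33.9 in wildtype mucosa (SD, n = 6 each), a log2 difference of -2.05 ± 0.12 (limma, adjusted p = 3.4e-07). Olfr592 averaged 126 ± 35.5 in deletion and 318 ± 44.0 in wildtype mucosa, a log2 difference of -1.37 ± 0.16 (limma, adjusted p = 0.000215). On the other side, Olfr596 averaged 25.9 ± 3.96 in deletion and 78.4 ± 9.98 in wildtype mucosa (-1.56 ± 0.14, limma, adjusted p = 1.05e-05). Olfr598 averaged 146 ± 19.5 in deletion and 251 ± 44.3 in wildtype mucosa (-0.76 ± 0.12, limma, adjusted p = 0.00435), and its call was lost without the 4 libraries over 1% Gm10800 (-0.74, limma, adjusted p = 0.108). Olfr594 therefore lies above neighbours that were all lower.

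Around Olfr65, Olfr66 was lower, with 17.4 ± 6.18 normalized counts in deletion and 54.1 ± 9.16 in wildtype mucosa (SD, n = 6 each), a log2 difference of -1.63 ± 0.21 (limma, adjusted p = 0.000679). Olfr64 averaged 101 ± 14.2 in deletion and 100.4 ± 20.9 in wildtype mucosa, a log2 difference of 0.027 ± 0.14 that did not pass the test (limma, adjusted p = 0.969) and changed sign with the scaling to summed receptor signal (-0.015). Olfr631 and Olfr632 had estimates of -0.63 and -0.17 and did not pass either. Only Olfr66 of these 4 neighbours was called.

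Around Olfr653, no neighbour passed the test. Olfr654 averaged 102 ± 32.0 normalized counts in deletion and 153 ± 27.8 in wildtype mucosa (SD, n = 6 each), a log2 difference of -0.62 ± 0.18 (limma, adjusted p = 0.457). It passed only when the fifth deletion library, its highest, was left out (-0.76, limma, adjusted p = 0.0426). The estimates were -0.25 for Olfr652, -0.0088 for Olfr651 and 0.10 for Olfr655. All 4 estimates were under that of Olfr653, and the difference between the genes was not tested.

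Around Olfr667, Olfr668 was lower, 0.808 kb away, with 95.5 ± 16.1 normalized counts in deletion and 160 ± 19.4 in wildtype mucosa (SD, n = 6 each), a log2 difference of -0.74 ± 0.12 (limma, adjusted p = 0.00632). This call was lost without the 4 libraries over 1% Gm10800 (-0.63, limma, adjusted p = 0.497). Olfr665 had an estimate of -0.56 ± 0.14 (limma, adjusted p = 0.186) and passed without the second deletion library (-0.67, limma, adjusted p = 0.0136). Olfr666 and Olfr669 had estimates of 0.19 and 0.14 and did not pass.

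**Figure D4:**
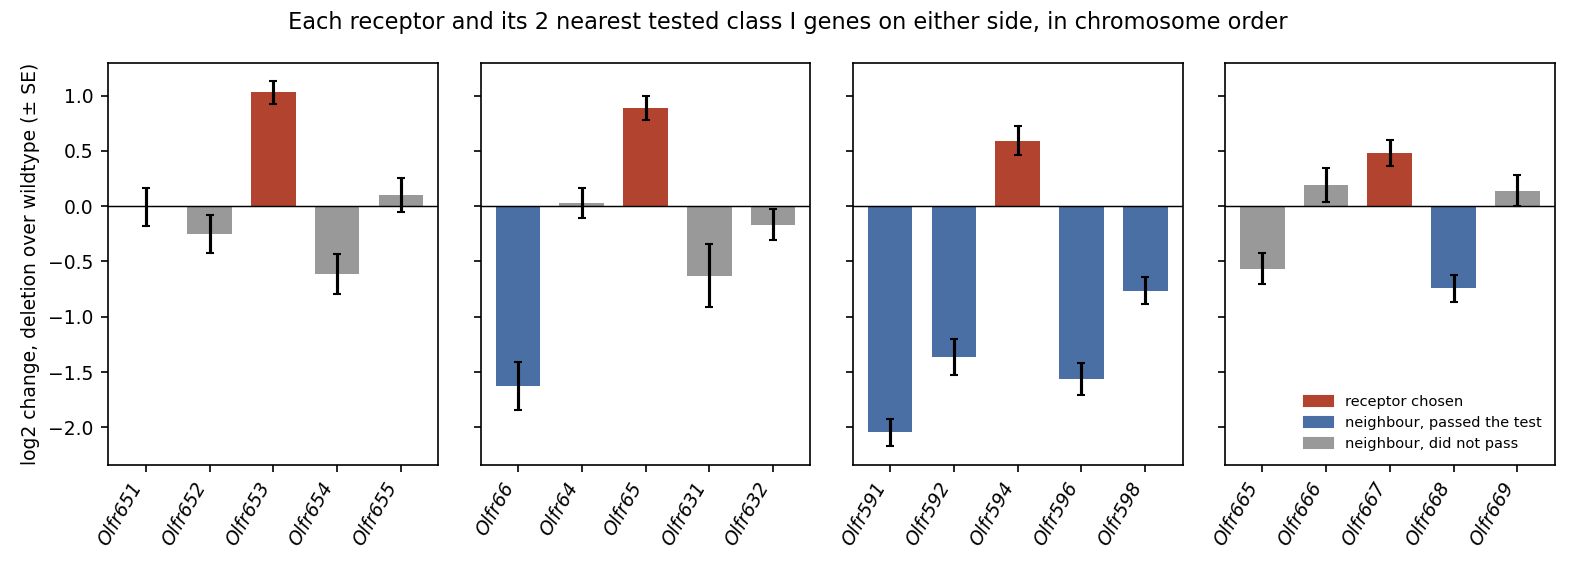
Log2 difference of deletion minus wildtype with its SE for each of the 4 receptor genes and the closest pair of tested class I genes on each side of it. The neighbours of Olfr594 range between -2.05 and -0.76, while those of Olfr653 range between -0.62 and 0.10.

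In a wider window of 100 kb on each side, 4 of 6 tested class I genes around Olfr594 were lower in deletion mucosa, with a median log2 difference of -1.43. Around Olfr65, 2 of 7 were lower (median -0.48), around Olfr667 2 of 8 (median -0.44) and around Olfr653 1 of 8 (median -0.28). Of the 112 tested class I genes without the 4, 56.2% were lower. The 1 lower gene around Olfr653 was Olfr657, with a log2 difference of -4.81. It averaged 1.74 ± 1.58 normalized counts in deletion and 67.1 ± 9.87 in wildtype mucosa (SD).

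The closest relatives by sequence were lower in deletion mucosa or did not pass the test, apart from Olfr589, which was not tested. Olfr623, the close relative of Olfr65 whose coding stretch is printed above, ranged between 65.9 and 154 normalized counts in deletion libraries and between 197 and 279 in wildtype libraries, with no overlap, as did 0.444% of all tested genes and 56% of tested class I genes in that direction. It averaged 104 ± 28.8 in deletion and 235 ± 33.3 in wildtype mucosa (SD, n = 6 each), a log2 difference of -1.21 ± 0.16 (limma, adjusted p = 0.000679). Olfr65 and Olfr623 thus lay on opposite sides of 0. Their sum was 496 ± 84.8 in deletion and 445 ± 43.9 in wildtype mucosa, and its ranges overlapped (410 to 653 in deletion and 380 to 498 in wildtype libraries). Olfr65 made up 79.1% ± 4.36 of that sum in deletion and 47.4% ± 4.02 in wildtype mucosa. How far reads were exchanged between the pair in counting was not tested.

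Olfr667 and Olfr668 showed the same division. Their sum was 196 ± 24.4 normalized counts in deletion and 231 ± 21.2 in wildtype mucosa (SD, n = 6 each), with overlapping ranges (176 to 237 in deletion and 199.6 to 259 in wildtype libraries). Olfr667 made up 51.2% ± 5.16 of it in deletion and 31.0% ± 3.45 in wildtype mucosa. Olfr666 is nearly as close to Olfr667 (84.8% identical, 1 mismatch in the closest stretch). It averaged 99.0 ± 23.3 in deletion and 85.6 ± 12 in wildtype mucosa, a positive log2 difference of 0.19 ± 0.15 that did not pass the test (limma, adjusted p = 0.803). Olfr646, the nearest relative of Olfr653, averaged 43.4 ± 7.13 in deletion and 51.9 ± 15.9 in wildtype mucosa, a log2 difference of -0.21 ± 0.20 that did not pass the test (limma, adjusted p = 0.835). Olfr589, the nearest relative of Olfr594, averaged 1.08 ± 1.38 in deletion and 7.12 ± 4.80 in wildtype mucosa, under the filter on low values. The sum of Olfr653 and Olfr646 was 1.96 times, and that of Olfr594 and Olfr589 1.43 times, as high in deletion as in wildtype mucosa.

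**Figure D5:**
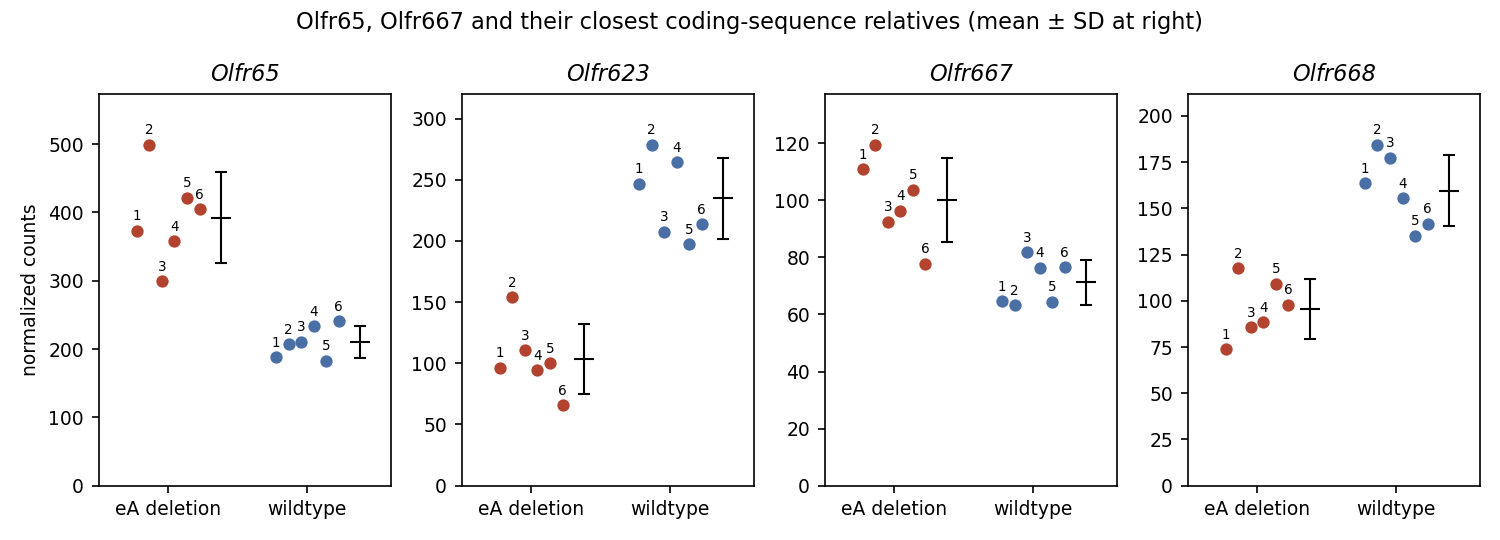
Normalized counts (vertical axis, each panel from 0) of Olfr65, its relative Olfr623, Olfr667 and its relative Olfr668 in every library, eA deletion left of wildtype; numbered points are animals and the bars are the mean with its SD (n = 6 each). Olfr623 and Olfr668 are lower in every deletion library than in any wildtype library, while Olfr65 is higher in every one.

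Likeness between genes was measured as the root mean square difference of their log2(value + 1) profiles over the 12 libraries, each centred on its own mean, so 0 means an identical course. Olfr653 and Olfr65 were closer to each other (0.20) than either was to any other tested gene. Outside the 4 genes, the nearest to Olfr653 was Olfr1370, a class II receptor on chromosome 13 (0.28), and the nearest to Olfr65 was the class II receptor Olfr1449 (0.29). Olfr1370 averaged 396 ± 34.8 normalized counts in deletion and 261 ± 48.2 in wildtype mucosa (SD, n = 6 each), a log2 difference of 0.62 ± 0.11 (limma estimate ± SE). It was picked for its likeness to Olfr653, so that difference is a description and carries no test.

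Genes other than receptors with a predicted-gene or clone name were left out of this listing. For Olfr594 and for Olfr667, such a gene was closer than any gene named here. Of the rest, the nearest to Olfr594 were the class II receptors Olfr1347 (0.20) and Olfr525 (0.20). For Olfr667 they were the class I receptor Olfr609 (0.17) and the class II receptor Olfr109 (0.18). Of the remaining genes that are not receptors, Lrrc28 was the nearest to Olfr653 (0.33), Olfr65 (0.30) and Olfr594 (0.21). Elovl7, a fatty acid elongase, was the nearest of them to Olfr667 (0.19). The log2 differences were 0.49 ± 0.11 for Lrrc28 and 0.32 ± 0.08 for Elovl7 (limma estimate ± SE). Lrrc28, Olfr1347, Olfr525 and Olfr609 lie on chromosome 7, as the deleted element does, and Olfr1449, Olfr109 and Elovl7 lie on other chromosomes. The labels do not say which strain the chromosome 7 alleles come from, and a part of strain was not tested. All these profiles share the same libraries and size factors. A gene that is higher in deletion mucosa is close to the 4 genes for that reason alone. The differences of genes picked by likeness are therefore a description and carry no test.

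Genes that receptors work with were set beside the 4 receptors. The list of 31 genes held the transduction chain of sensory neurons, from the G protein subunit Gnal and the adenylyl cyclase Adcy3 to the channel Cnga2, together with receptor trafficking factors and regulators of receptor choice. None was called in either direction by limma, edgeR or DESeq2, and 1 had an unadjusted p under 0.05 in limma. Their log2 differences ran between -0.061 and 0.19, with 27 positive and 4 negative estimates and a median of 0.065, beside 0.0087 for all tested genes. Bcl11b, known as a regulator of receptor class choice, averaged 1759 ± 194 normalized counts in deletion and 1567 ± 179 in wildtype mucosa (SD, n = 6 each; limma, adjusted p = 0.744). Lhx2 and its cofactor Ldb1, which bind receptor enhancers, had log2 differences of 0.07 ± 0.06 (limma, adjusted p = 0.805) and 0.02 ± 0.05 (limma, adjusted p = 0.931).

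The tissue label was checked against markers of several cell types. Of the 46 marker genes tested, 0 were called by limma, beside 0.372% of all tested genes. Omp averaged 63115 ± 5927 normalized counts in deletion and 60400 ± 6696 in wildtype mucosa (SD, n = 6 each), and the 8 mature neuron markers summed to 162531 to 186456 in deletion and 149132 to 184115 in wildtype libraries. Vomeronasal neuron markers, of which 2 were measured, summed to at most 16.0 normalized counts in deletion and 29.6 in wildtype libraries. The bone list, Bglap and Col1a1, summed to 25501 to 56762 in deletion and 22113 to 59899 in wildtype libraries. Nearly all of it was Col1a1, with means of 41246 in deletion and 36866 in wildtype mucosa. Bglap averaged 262 ± 63.0 in deletion and 234 ± 109 in wildtype mucosa. How much of the Col1a1 signal came from bone was not tested. The 3 markers of Bowman's glands summed to 3281 to 26598 in deletion and 3160 to 10551 in wildtype libraries. That spread came mostly from Bpifb9a, with 7896 ± 9032 in deletion and 1994 ± 2857 in wildtype mucosa. Sox9 averaged 291 ± 30.1 in deletion and 278 ± 40.9 in wildtype mucosa. Aqp5 averaged 2905 ± 329 in deletion and 2642 ± 206 in wildtype mucosa. The dorsal zone list held Nqo1 and Acsm4. Nqo1 averaged 6820 ± 1139 in deletion and 7926 ± 943 in wildtype mucosa, a log2 difference of -0.22 ± 0.11 (limma, adjusted p = 0.744). That of Acsm4 was -0.03 ± 0.11 (limma, adjusted p = 0.960). The part of these markers in the receptor values was not tested.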

How the data were processed

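RNA of the olfactory mucosa was sequenced from 6 eA deletion and 6 wildtype mice, 1 library per animal, grouped by the labels. Per the submitters' processing notes, STAR 2.6.0, DESeq2 and the build GRCm38.p6 were used. How reads were counted, with which annotation and strand option, is not given in the sources used here. Per the file headers, the deposited table gives normalized counts, a signal that is never negative, for each library. In it are also the authors' log2 fold changes of wildtype over deletion, the authors' p-values and the score that their test gave. The design assumed raw counts first and limma otherwise. Since the values are normalized counts, limma 3.58.1 (R 4.3.3) with a mean-variance trend was run on log2(value + 1), which understates changes of low genes, for 19373 genes with a mean of at least 10, with Benjamini-Hochberg adjustment at 5%. Dividing by the value of 1 read gave whole reads (within 0.01) for at least 99.985% of values in each library. On the recovered reads edgeR 4.0.16 (quasi-likelihood, rounded reads) called 67 of the same 19373 genes, against 72 by limma. DESeq2 1.42.0 called 88, but was run on all 46297 genes, without the filter on low values. Scripts were tested on simulated data. By symbol, class I takes in Olfr543 to Olfr693, Olfr64 to Olfr69, Olfr33 and Olfr78.

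Positions, exon lengths and coding sequences were taken from the GENCODE M21 annotation of GRCm38, in which 99.7% of gene identifiers were found. The build of the deletion's coordinates is not named beside them and was read as GRCm38. Coding sequences were aligned with those of the 135 class I genes that have one (Biopython 1.88), and identity is the number of identical bases over the longer sequence. Sums per library were tested by exact permutation, two-sided. Besides the 4 genes, those named were the 2 nearest tested class I genes on each side, the closest profiles (3 receptors and 2 other genes each), the closest coding sequences, the 3 class I genes with the next largest positive estimates, and Gm10800, Omp, Cnga2, Gnal, Adcy3, Lhx2, Ldb1 and Bcl11b. The other genes among the closest profiles exclude those with a predicted-gene or clone name. Olfr657, Olfr672, and the Bowman gland, bone and dorsal zone lists, were named after their values were seen. Closest coding sequences replaced closest proteins, which were not used here. The members and lists were chosen with earlier results of these data known. The labels do not say that a replicate number marks a shared litter or day, and the numbers were not used for pairing. Alternatives were other tests, pseudocounts, filters and scalings, a replicate block, and leaving out libraries. Intervals were not set on single libraries; read counts are given instead and cover counting error only.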

Additional observations from a re-analysis of the deposited data

Results flagged for a closer look

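Among the values of the 4 genes, their neighbours and the class I sums, 52 groups of 6 libraries were examined for a library far from the other 5, a distance that chance alone gives in about 1 in 20 groups. It was found in 2 groups. Olfr594 had its lowest value among deletion libraries, 84.5 normalized counts, in the third library, at a gap of 0.676 of the group's whole range, and without that library its log2 difference was 0.72. Olfr651, a neighbour of Olfr653, had its lowest deletion value, 47.1 normalized counts, in the fourth library, at a gap of 0.853 of the range.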

How the results depend on the processing

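The estimates of the 4 genes kept their direction in all 21 alternatives, between 0.94 and 1.13 for Olfr653, 0.81 and 0.96 for Olfr65, 0.54 and 0.72 for Olfr594, and 0.43 and 0.60 for Olfr667 on the log2 scale, which their choice makes no sign of stability. With a mean of at least 50 required, 82 class I genes were tested and 37 were lower, and 40 of 14407 genes were called in all, fewer because fewer were tested. Leaving out each library in turn gave 56 to 64 lower class I genes, 2 to 3 higher, 61 to 79 calls over all genes and 6 to 7 lower neighbours. The log2 difference of Olfr64 was -0.015 with scaling to receptor signal and ranged from -0.040 to 0.12 with a library left out. That of Olfr651 was 0.022 without the 4 libraries over 1% Gm10800 and ranged from -0.15 to 0.087 with a library left out, and the cause was not tested. The other class I genes differed by -4.51 to -3.96 points of receptor signal and by -5702 to -5172 normalized counts with a library left out. With the replicate block 55 class I genes were lower and 71 genes called. Deviations of deletion and wildtype libraries with the same number correlated between -0.147 and 0.358, and 0 deletion libraries correlated best with their own number. Such correlations cannot show whether same-numbered animals shared a litter or day, which the labels do not say. Low read numbers limit Olfr594 and Olfr667, where counting error is 8.92% and 10.1% of the mean in deletion and 10.9% and 12.1% in wildtype libraries.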
